A study of Mus musculus with 9 samples.

Results

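Genes that mark the mesenchymal state were compared between primary mouse mammary tumours of a non-metastatic line and of its lung-metastatic derivatives. The list proposed 42 genes by name: transcription factors of the epithelial-mesenchymal transition (EMT), mesenchymal cytoskeletal genes, non-collagen matrix genes and mesenchymal surface receptors. Of these, 41 were among the 14108 genes counted, and *Cdh2*, which encodes N-cadherin, was not analysed here. The members were listed by name and role, with earlier results of these data known. Sorted GFP-positive cells of 9 tumours were read by RNA-seq, 3 tumours of each of 3 models. HR1 is a non-metastatic mammary cancer line from mice with mutant PIK3CA H1047R. LM1 and LM9 are lines isolated from lung metastases that arose after HR1 cells carrying a *piggyBac* transposon with a CAG promoter, mobilized with doxycycline, had been injected, so each LM model rests on a single line. All 3 models therefore share the PIK3CA mutant background. For every tumour, 250000 cells in Matrigel and PBS were placed in the mammary fat pad of a female NOD.CB17-Prkcd<scid>/J mouse (NOD/SCID, with the strain name as the labels spell it), 4 to 8 weeks old, a host with few lymphocytes that still has stroma and myeloid cells. The labels do not say whether the tumours of a model came from separate mice, so the p-values measure the spread between these tumours.

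EMT is the programme by which epithelial cells lose cell-cell junctions and take on the shape, motility and matrix production of mesenchymal cells. The SNAIL, TWIST and ZEB factors bind E-box elements and repress junction genes such as *Cdh1*, which encodes E-cadherin, while vimentin, fibronectin and smooth muscle actin are widely used as marks of the mesenchymal state. Contractile genes of smooth muscle and myofibroblasts are controlled by serum response factor (SRF) through CArG boxes, and the matrix genes of the list encode proteins that fibroblasts secrete.

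Total counts lay between 32393958 and 46681945 per tumour. Levels are given in CPM, the count per 1000000 counts of the library after TMM scaling, in the order of replicates 1, 2 and 3. Differences are log2 fold changes ± an approximate standard error. The p-values of the differences come from the quasi-likelihood test of edgeR, adjusted by the Benjamini-Hochberg method over the 14086 genes tested. An adjusted p-value under 0.05 is a call. That test gives no standard error, so it was derived as the absolute log2 fold change divided by the square root of the F statistic. The tumour labelled HR1 replicate 1 stood apart. Its *Nfib*, the gene used as the label check, was at 1343 CPM, against 23.9 and 18.3 CPM in the other HR1 tumours and 421 to 791 CPM in LM tumours. By this gene the tumour goes against its label, which is therefore in doubt, and every HR1 mean and fold change over 9 tumours includes it. It was kept in the group its label gives. Within-model correlations of log2 CPM were 0.871 to 0.958 in HR1, 0.984 to 0.99 in LM1 and 0.989 to 0.99 in LM9. In HR1 replicate 1, 10 members were at least 2-fold below both other HR1 tumours and 5 at least 2-fold above both, together 36.6% of the members, against 25.5% of all tested genes. Of those members, 4 of the 10 and 1 of the 5 were within the range of the LM tumours. Over all tested genes, 446 of 2027 below and 376 of 1566 above were within it. Results on the called members are therefore also given without this tumour.

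The mesenchymal character of the cells was checked against defining markers of both states. *Vim* ranged from 7344 to 12289 CPM over the 9 tumours, whereas *Cdh1* did not exceed 1.20 CPM and *Epcam*, another epithelial adhesion gene, did not exceed 4.49 CPM. Other epithelial markers were not all low. *Dsp*, which encodes the desmosomal protein desmoplakin, was at 28.8, 42.3 and 30.6 CPM in HR1, 60.8, 75.7 and 39.4 CPM in LM1 and 85.0, 83.2 and 64.7 CPM in LM9 and rose in LM tumours (log2 fold change 0.99, adjusted p = 0.00847, or 0.89 (adjusted p = 0.0119) without HR1 replicate 1). The basal keratin *Krt14* was at 1.56, 31.4 and 109 CPM in HR1, 175, 152 and 175 CPM in LM1 and 12.2, 15.4 and 14.0 CPM in LM9, highest in LM1 tumours and lowest in HR1 replicate 1, and did not pass versus HR1 with all tumours. *Krt5*, *Krt18* and *Krt19*, further keratins, were at 0 to 10.7 CPM, 0 to 2.48 CPM and 0 to 2.36 CPM. Of 13 epithelial markers listed, these 7 were among the genes counted, and *Krt7*, *Krt8*, *Cldn3*, *Cldn4*, *Cldn7* and *Ocln* were not analysed here.

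In LM1 and LM9 together versus HR1, 6 members rose and 19 fell of 41 tested, and 16 did not pass the test. The background was 19.9% of tested genes higher and 23.6% lower. The median log2 fold change was -0.79 over the members and -0.05 over all tested genes. Without HR1 replicate 1, 8 members rose and 22 fell, against 27.5% and 28.5% of tested genes; 24 of the 25 calls were kept, *Dcn* was lost and *Bgn*, *Fbln2*, *Fn1*, *Snai1*, *Spp1* and *Tpm1* were gained. For LM1 versus HR1 alone, 4 members rose and 16 fell (background 16.7% and 18.7%), or 7 and 17 without HR1 replicate 1 (background 26.9% and 26.0%). For LM9 versus HR1, 7 rose and 19 fell (background 20.4% and 21.9%), or 9 and 22 without that tumour (background 27.9% and 27.8%). These comparisons share their HR1 tumours. In LM9 versus LM1, 3 members were higher and 6 lower in LM9 (background 11.5% and 10.6%), and 9 and 16 without HR1 replicate 1 (background 22.9% and 22.5%). The HR1 tumours enter that test through the shared estimate of spread. The total for LM1 versus HR1 was 13 in place of 20 without LM1 replicate 1. That for LM9 versus LM1 was 15 in place of 9 without HR1 replicate 3, and 5 without any 1 of LM1 replicates 1 and 3 and LM9 replicates 2 and 3. By levels alone, each of the 6 LM tumours was above each of the 3 HR1 tumours for 4 members (background 15.6%) and below for 11 members (background 14.3%).

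**Figure D1:**
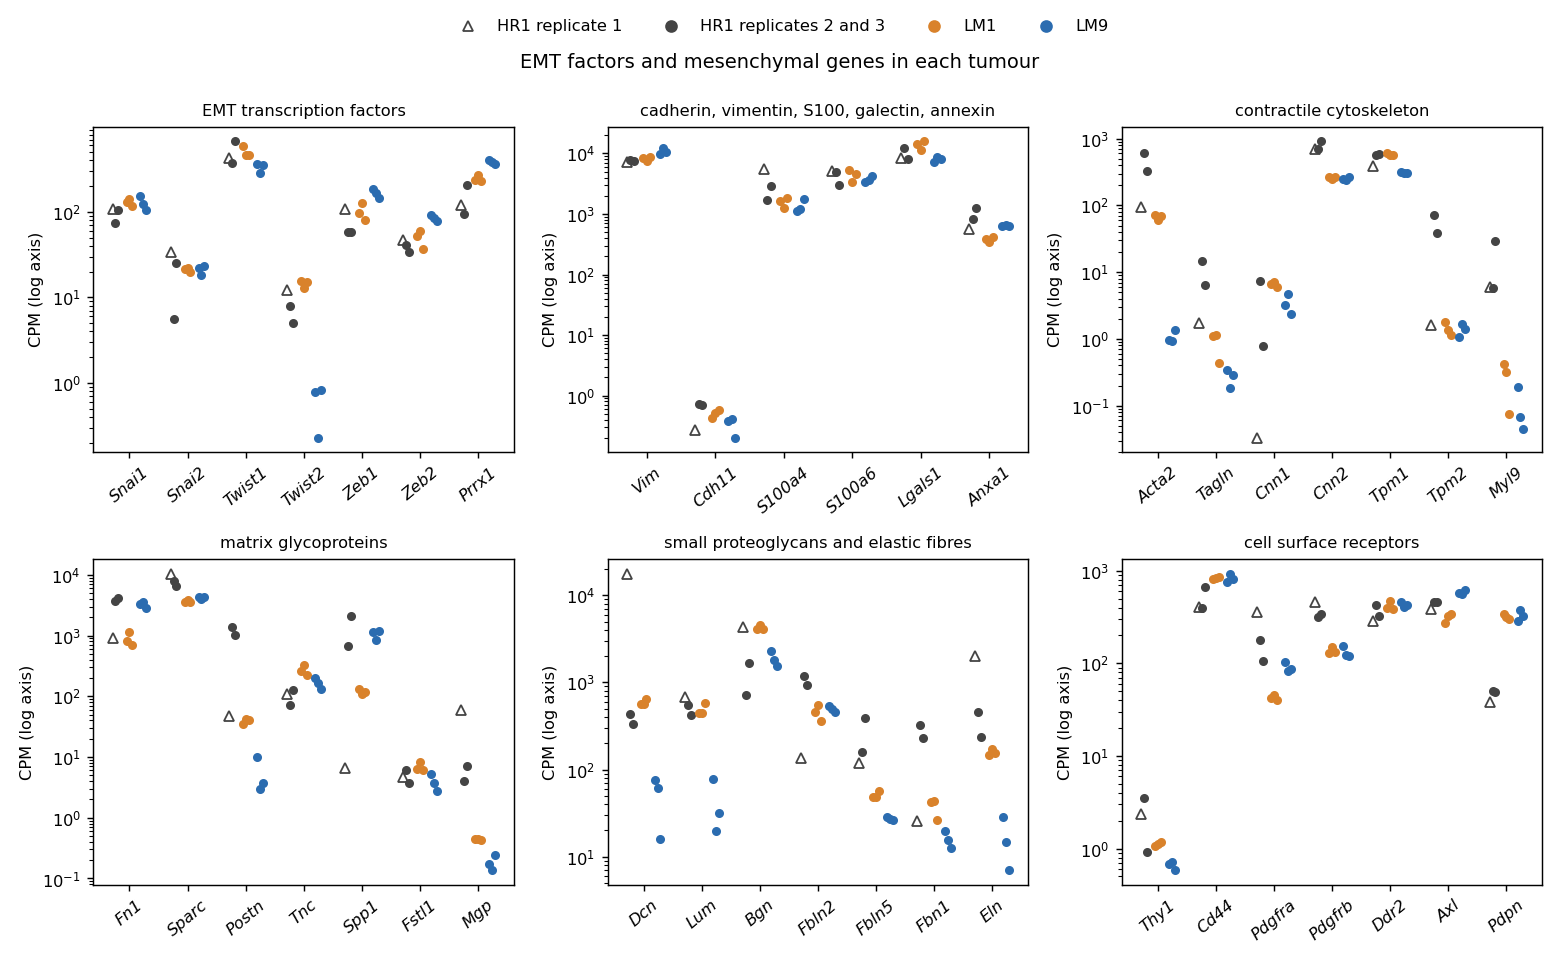
Level of each member in each tumour, in CPM on a log axis, with 1 panel per role. Points are single tumours, coloured by model, and the open triangle is HR1 replicate 1. *Pdpn* ranges from 285 to 379 CPM in LM tumours and 38.5 to 50.4 CPM in HR1 tumours, while *Myl9*, *Mgp* and *Tagln* of the LM tumours lie below all HR1 tumours.

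**Figure D2:**
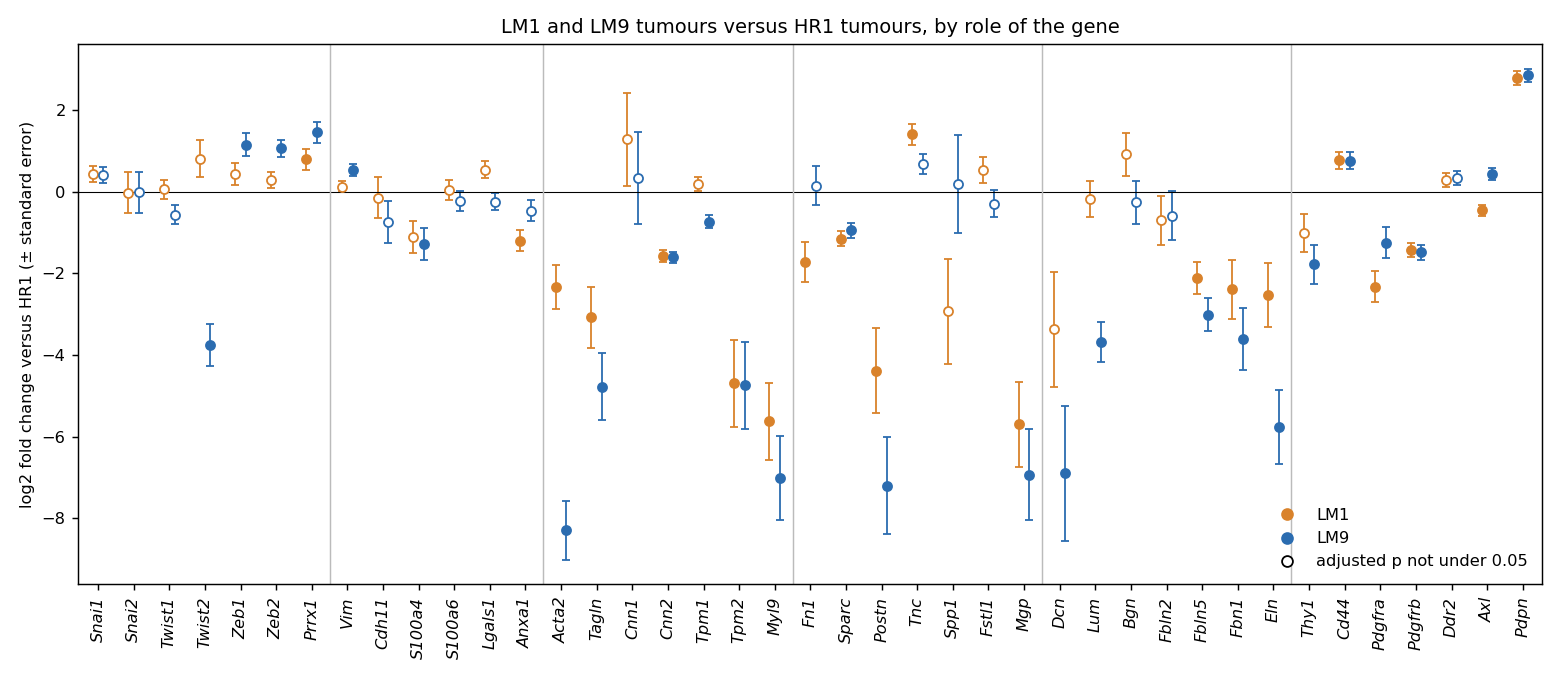
Log2 fold change of LM1 (orange) and LM9 (blue) versus HR1 for each member, with bars of ± 1 approximate standard error derived from the edgeR F statistic. Filled points have an adjusted p-value under 0.05, and vertical lines separate the roles. *Acta2* was at -2.35 in LM1 and -8.29 in LM9, and *Pdpn* at 2.79 and 2.84.

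Among the 7 EMT transcription factors, *Zeb1*, *Zeb2* and *Prrx1* rose over both LM models together (background 19.9%) and *Twist2* was lower (background 23.6%), having fallen in LM9 and not in LM1, while *Snai1*, *Snai2* and *Twist1* did not pass the test with all 9 tumours. In LM1 alone *Prrx1* was the 1 factor that passed (background 16.7% higher), and in LM9 alone 3 rose and 1 fell (background 20.4% and 21.9%). Without HR1 replicate 1, *Snai1*, *Twist2* and *Zeb1* rose in LM1 (background 26.9%) and *Prrx1* no longer passed there. In LM9 4 then rose and 2 fell (background 27.9% and 27.8%). Per kilobase of exons, *Twist1* had the highest mean level of the 7 in each model, with 303 CPM per kb in HR1, 313 in LM1 and 204 in LM9. *Prrx1*, a homeobox factor of limb and craniofacial mesenchyme, was at 119, 95.8 and 207 CPM in HR1, 235, 268 and 229 CPM in LM1 and 402, 388 and 366 CPM in LM9. The 3 models did not overlap, and LM9 was highest. Its log2 fold change was 1.12 ± 0.23 (adjusted p = 0.00499) for both LM models, or 1.02 (adjusted p = 0.00639) without HR1 replicate 1. In LM1 alone the call was lost without that tumour, with 0.79 (adjusted p = 0.0393) before and 0.70 (adjusted p = 0.0502) after. *Zeb1*, a zinc-finger repressor of *Cdh1*, was at 108, 58.3 and 57.7 CPM in HR1, 96.9, 127 and 80.2 CPM in LM1 and 184, 168 and 146 CPM in LM9. LM9 tumours were above every HR1 tumour, and LM1 tumours overlapped HR1 replicate 1. The log2 fold change for both LM models was 0.79 ± 0.24 (adjusted p = 0.0279), or 1.17 (adjusted p = 0.000429) without HR1 replicate 1. In LM1 alone it did not pass with all tumours, at 0.44 ± 0.27 (adjusted p = 0.239), or 0.81 (adjusted p = 0.00536) without HR1 replicate 1. *Zeb2*, its paralogue, was at 47.4, 41.0 and 34.2 CPM in HR1, 52.7, 60.4 and 36.3 CPM in LM1 and 92.6, 84.8 and 77.5 CPM in LM9. Again LM9 lay above all HR1 and LM1 tumours, while LM1 replicate 3 was within the HR1 range. On the log2 scale the difference was 0.67 ± 0.18 (adjusted p = 0.0167) for both LM models and 0.29 (adjusted p = 0.301) for LM1 alone, or 0.80 (adjusted p = 0.00517) and 0.41 (adjusted p = 0.11) without HR1 replicate 1.

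Of the TWIST factors, which are basic helix-loop-helix proteins, *Twist2* differed between the LM models. *Twist2* was at 12.1, 7.83 and 4.99 CPM in HR1, 15.5, 12.7 and 15.2 CPM in LM1 and 0.773, 0.229 and 0.833 CPM in LM9. LM1 tumours had more than every HR1 tumour and LM9 tumours less. Its fold change on the log2 scale was -3.76 ± 0.51 (adjusted p = 0.000879) in LM9 and 0.80 ± 0.45 (adjusted p = 0.196) in LM1 versus HR1, or -3.38 (adjusted p = 0.000149) and 1.18 (adjusted p = 0.0291) without HR1 replicate 1. *Twist1* was at 432, 376 and 669 CPM in HR1, 598, 464 and 469 CPM in LM1 and 359, 286 and 353 CPM in LM9. LM9 tumours were the lowest 3 of the 9, and LM1 tumours lay within the HR1 range. In LM9 the log2 fold change was -0.57 ± 0.23 (adjusted p = 0.0752), or -0.65 (adjusted p = 0.0356) without HR1 replicate 1. *Snai1*, the founding member of the SNAIL family, was at 109, 73.8 and 104 CPM in HR1, 129, 139.9 and 118 CPM in LM1 and 151, 123 and 104 CPM in LM9. LM1 tumours were above every HR1 tumour, and LM9 replicate 3 lay within the HR1 range. The log2 fold change for both LM models was 0.41 ± 0.17 (adjusted p = 0.0782), or 0.52 (adjusted p = 0.0284) without HR1 replicate 1. With that tumour left out, *Snai1* also passed in LM1 alone and in LM9 alone. *Snai2* was at 34.2, 5.61 and 25.3 CPM in HR1, 21.5, 22.1 and 20.1 CPM in LM1 and 22.2, 18.5 and 23.5 CPM in LM9. HR1 replicate 2 was the lowest and HR1 replicate 1 the highest, with the 6 LM tumours between them, and the log2 fold change was -0.03 ± 0.44 (adjusted p = 0.97), or 0.47 (adjusted p = 0.388) without HR1 replicate 1.

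Of the 6 cadherin, filament and small binding protein genes, 2 fell in LM tumours (33.3%, against 23.6% of all tested genes) and none rose. *Vim*, the intermediate filament of mesenchymal cells, was at 7344, 7934 and 7362 CPM in HR1, 8452, 7507 and 8691 CPM in LM1 and 9886, 12289 and 10489 CPM in LM9. LM9 tumours were above the other 6 and LM1 tumours overlapped HR1. The fitted log2 difference was 0.53 ± 0.14 (adjusted p = 0.0179) in LM9 and 0.12 ± 0.14 (adjusted p = 0.535) in LM1, or 0.51 (adjusted p = 0.0108) and 0.11 (adjusted p = 0.517) without HR1 replicate 1. *Anxa1*, a calcium-dependent phospholipid-binding protein, was at 567, 816 and 1259.7 CPM in HR1, 389, 349 and 414 CPM in LM1 and 628, 662 and 625 CPM in LM9. LM1 tumours were below every HR1 tumour, and LM9 tumours lay within the HR1 range. For both LM models the log2 fold change was -0.83 ± 0.21 (adjusted p = 0.0134), or -1.06 (adjusted p = 0.000249) without HR1 replicate 1, and in LM1 alone it was -1.20 ± 0.26 (adjusted p = 0.00777), or -1.43 (adjusted p = 0.000125) without HR1 replicate 1. *S100a4*, a calcium-binding protein also called fibroblast-specific protein, was at 5577, 1710.4 and 2873 CPM in HR1, 1646, 1236 and 1819 CPM in LM1 and 1141, 1229.5 and 1801 CPM in LM9. HR1 replicate 1 was the highest and HR1 replicate 2 was within the LM range. The log2 fold change was -1.20 ± 0.33 (adjusted p = 0.018), and it moved to -0.63 (adjusted p = 0.043) without HR1 replicate 1. *S100a6*, which lies 6.849 kb from *S100a4* on chromosome 3, ranged from 3046 to 5121 CPM in HR1 and 3358 to 5396 CPM in LM tumours and did not pass in any of the 4 comparisons. *Lgals1*, which encodes the sugar-binding protein galectin, was at 8393, 12186 and 8099.7 CPM in HR1, 14471, 11191 and 15846 CPM in LM1 and 7272, 8818 and 7981 CPM in LM9. It differed between the LM models, as given below for LM9 versus LM1, and did not pass versus HR1 (log2 fold change 0.53 in LM1 and -0.25 in LM9). *Cdh11*, a mesenchymal cadherin, did not exceed 0.720 CPM in any tumour.

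Of the 7 contractile genes, 5 fell in LM tumours (background 23.6%) and none rose, and the same 5 fell in LM1 alone (background 18.7%). *Acta2*, *Tagln*, *Cnn2*, *Tpm2* and *Myl9* encode smooth muscle actin, transgelin, a calponin, a tropomyosin and a myosin light chain. In sorted bulk cells, fewer cells that express a gene and less RNA per cell cannot be told apart. Promoters were searched for CArG boxes because SRF is a known regulator of this group. The strict CArG box was taken as CC, then 6 bases of A or T, then GG. A CArG-like form allowed 1 of those 6 bases to be C or G. The 3 promoters shown are those of the contractile genes in which either form was found, with its letters in capitals. None was found for *Tpm1*, *Tpm2*, *Cnn1* or *Tagln*, and *Tagln* had no promoter to search. Sequences are from RefSeq on GRCm38.p6, from 250 bases before to 50 bases after the annotated start, read 5′ to 3′ on the strand of the gene. *Cnn2* (chr10:79988350-79988649, plus strand) has a strict CArG box from 56 to 47 bases before the start and *Myl9* (chr2:156775214-156775513, plus strand) has one from 161 to 152 bases before it and a CArG-like form from 99 to 90 bases before it. The *Acta2* window (chr19:34255324-34255623, minus strand) has CArG-like forms from 84 to 75 and from 34 to 25 bases before the start and no strict one.
Cnn2: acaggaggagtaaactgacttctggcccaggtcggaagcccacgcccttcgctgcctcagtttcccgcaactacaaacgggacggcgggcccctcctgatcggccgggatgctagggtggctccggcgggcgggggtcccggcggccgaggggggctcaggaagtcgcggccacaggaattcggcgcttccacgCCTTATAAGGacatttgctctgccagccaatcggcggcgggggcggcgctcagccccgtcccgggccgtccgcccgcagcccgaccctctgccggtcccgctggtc
Myl9: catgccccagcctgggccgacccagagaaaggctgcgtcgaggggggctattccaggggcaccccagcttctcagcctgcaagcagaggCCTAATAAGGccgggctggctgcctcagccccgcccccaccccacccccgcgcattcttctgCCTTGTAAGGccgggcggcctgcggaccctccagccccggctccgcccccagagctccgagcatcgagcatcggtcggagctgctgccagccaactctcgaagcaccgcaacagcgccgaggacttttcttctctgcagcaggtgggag
Acta2: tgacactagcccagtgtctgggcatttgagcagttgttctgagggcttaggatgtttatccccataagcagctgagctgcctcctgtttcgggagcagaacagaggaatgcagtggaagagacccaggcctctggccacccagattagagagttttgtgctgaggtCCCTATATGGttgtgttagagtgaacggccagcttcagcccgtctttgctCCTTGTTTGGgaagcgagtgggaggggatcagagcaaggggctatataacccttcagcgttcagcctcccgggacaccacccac

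Either pattern is its own reverse complement, so 1 search covers both strands. The strict box occurred in 1.63% of 32851 mouse promoters of this length and in those of 2 of the 29 members that have a promoter in the table. The CArG-like form occurred in 8.50% of promoters and in those of 3 members, *Myl9*, *Acta2* and *Fbln2*. The match is a description of letters and not a measured binding site, and no strict or CArG-like match overlapped an E-box in the windows shown.

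*Acta2* was at 95.7, 606 and 327 CPM in HR1, 71.7, 60.9 and 69.5 CPM in LM1 and 0.966, 0.938 and 1.37 CPM in LM9. The models did not overlap, with HR1 highest and LM9 near 1 CPM. On the log2 scale the difference was -2.35 ± 0.54 (adjusted p = 0.0106) in LM1 and -8.29 ± 0.72 (adjusted p = 0.000114) in LM9, or -2.78 and -8.73 without HR1 replicate 1. *Tpm2* was at 1.60, 71.0 and 39.1 CPM in HR1, 1.79, 1.38 and 1.14 CPM in LM1 and 1.07, 1.69 and 1.42 CPM in LM9. The 2 higher values belong to HR1 replicates 2 and 3, and HR1 replicate 1 lay within the LM range. Its fold change on the log2 scale was -4.71 ± 0.80 (adjusted p = 0.00206), or -5.27 (adjusted p = 2.81e-07) without HR1 replicate 1. *Myl9* was at 6.02, 5.72 and 29.4 CPM in HR1, 0.420, 0.317 and 0.0762 CPM in LM1 and 0.193, 0.0687 and 0.0450 CPM in LM9, from 9, 3 and 2 counts in the LM9 tumours. All HR1 tumours, replicate 1 included, were above all LM tumours. Its log2 fold change was -6.32 ± 0.73 (adjusted p = 0.000365), or -6.66 (adjusted p = 5.12e-05) without HR1 replicate 1. *Tagln* was at 1.73, 14.6 and 6.38 CPM in HR1, 1.11, 1.13 and 0.432 CPM in LM1 and 0.343, 0.183 and 0.293 CPM in LM9. HR1 replicate 1 was nearest to the LM tumours but still above them, and the log2 fold change was -3.93 ± 0.60 (adjusted p = 0.00117), or -4.39 (adjusted p = 1.64e-05) without HR1 replicate 1. *Cnn2* was at 705, 698 and 912 CPM in HR1, 266, 251 and 263 CPM in LM1 and 248, 239 and 269.9 CPM in LM9. The LM tumours formed a narrow band below all HR1 tumours, and the log2 fold change of -1.59 ± 0.12 (adjusted p = 5.27e-05) was -1.65 without HR1 replicate 1. *Tpm1* was at 387, 577 and 582 CPM in HR1, 617, 572 and 578 CPM in LM1 and 312, 309 and 308 CPM in LM9. Only LM9 tumours were below the 3 HR1 tumours, with a log2 fold change of -0.74 ± 0.17 (adjusted p = 0.00898) in LM9 and 0.19 ± 0.17 (adjusted p = 0.398) in LM1, or -0.90 (adjusted p = 8.75e-05) and 0.03 (adjusted p = 0.815) without HR1 replicate 1. *Cnn1*, the smooth muscle calponin, was at 0.0333, 7.29 and 0.772 CPM in HR1, 6.72, 7.11 and 5.99 CPM in LM1 and 3.24, 4.69 and 2.34 CPM in LM9, with 1 count in HR1 replicate 1. It did not pass in any comparison (log2 fold change 0.81, adjusted p = 0.544).

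Related forms of these proteins, drawn from the list of other contractile genes and picked by family after their values were seen, did not all move with them. *Actg2*, the enteric smooth muscle actin, was at 0.399, 8.67 and 1.62 CPM in HR1, 0.567, 0.408 and 0.229 CPM in LM1 and 0.150, 0.114 and 0.113 CPM in LM9 and fell with a log2 fold change of -3.97 ± 0.78 (adjusted p = 0.00399), or -4.49 (adjusted p = 9.76e-05) without HR1 replicate 1. The broadly expressed forms *Tagln2*, *Cnn3*, *Tpm3* and *Tpm4* gave log2 fold changes of 0.25, -0.17, 0.06 and -0.28, with adjusted p-values of 0.453, 0.375, 0.683 and 0.145. The pooled values hide differences between the LM models. *Tagln2* was at 378, 942 and 773 CPM in HR1, 1329, 1204 and 1461 CPM in LM1 and 453, 605 and 504 CPM in LM9, so LM1 tumours were above all HR1 and LM9 tumours. Its log2 difference was 0.93 ± 0.30 (adjusted p = 0.0384) in LM1 and -0.42 ± 0.30 (adjusted p = 0.276) in LM9 versus HR1, or 0.64 (adjusted p = 0.00763) and -0.72 (adjusted p = 0.00348) without HR1 replicate 1. In LM9 versus LM1 it was -1.35 ± 0.30 (adjusted p = 0.0153) for *Tagln2* and -0.53 ± 0.13 (adjusted p = 0.0205) for *Tpm3*. In LM9 versus HR1 *Tpm4* was at -0.60 (adjusted p = 0.0207), and without HR1 replicate 1 *Tpm4* also fell over both LM models, with -0.44 (adjusted p = 0.00471). Per kilobase of exons, the mean level in LM9 was 250.1 CPM per kb for *Tagln2* and 0.137 for *Tagln*, and 192 for *Tpm4* and 0.480 for *Tpm2*. Over the whole list of other contractile genes, 2 were higher and 2 lower of 17 tested, from 20 listed, in LM tumours versus HR1, which is 11.8% each way against 19.9% higher and 23.6% lower among all tested genes. The 3 with the largest differences were *Lmod1*, a smooth muscle leiomodin, *Actg2*, and *Nes*, which encodes the intermediate filament nestin. *Lmod1* had at most 3 counts in each LM9 tumour and was at least 21.7-fold lower there than in HR1, taking 3 counts per tumour as the floor, or at least 12.1-fold without HR1 replicate 1. *Nes* was at 71.5, 19.5 and 10.8 CPM in HR1, 281, 278 and 182 CPM in LM1 and 241, 304 and 249 CPM in LM9, with a log2 fold change of 2.92 ± 0.58 (adjusted p = 0.00453), or 4.08 (adjusted p = 7.25e-06) without HR1 replicate 1. Genes of pericytes, which share contractile markers, were summed over 6 markers. They came to 6.92, 156 and 85.8 CPM in HR1, 54.2, 52.4 and 57.0 in LM1 and 68.4, 50.0 and 45.9 in LM9, of which HR1 replicate 1 was the lowest and the other HR1 tumours the highest. Most of the sum was *Notch3* in HR1 replicates 2 and 3 and in LM9, at 1.96, 143 and 80.8 CPM in HR1, 11.7, 17.8 and 15.8 CPM in LM1 and 66.6, 48.2 and 44.1 CPM in LM9, and *Kcnj8*, a potassium channel gene, in LM1, at 26.7 to 35.8 CPM there and at most 1.13 CPM elsewhere. Of these 6, 1 fell in LM tumours (*Rgs5*, log2 fold change -2.04, adjusted p = 0.0169), or 16.7% against 23.6% of all tested genes. Without HR1 replicate 1, 4 fell, or 66.7% against 28.5%. In LM1 alone *Kcnj8* rose (log2 fold change 5.43, adjusted p = 0.000598) and none fell (background 16.7% higher and 18.7% lower), and in LM9 alone 4 fell and none rose (background 20.4% higher and 21.9% lower). When that tumour was left out, 1 rose and 2 fell in LM1 (background 26.9% and 26.0%) and 6 fell in LM9 (background 27.8%). The part of such cells in the contractile result was not tested.

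**Figure D3:**
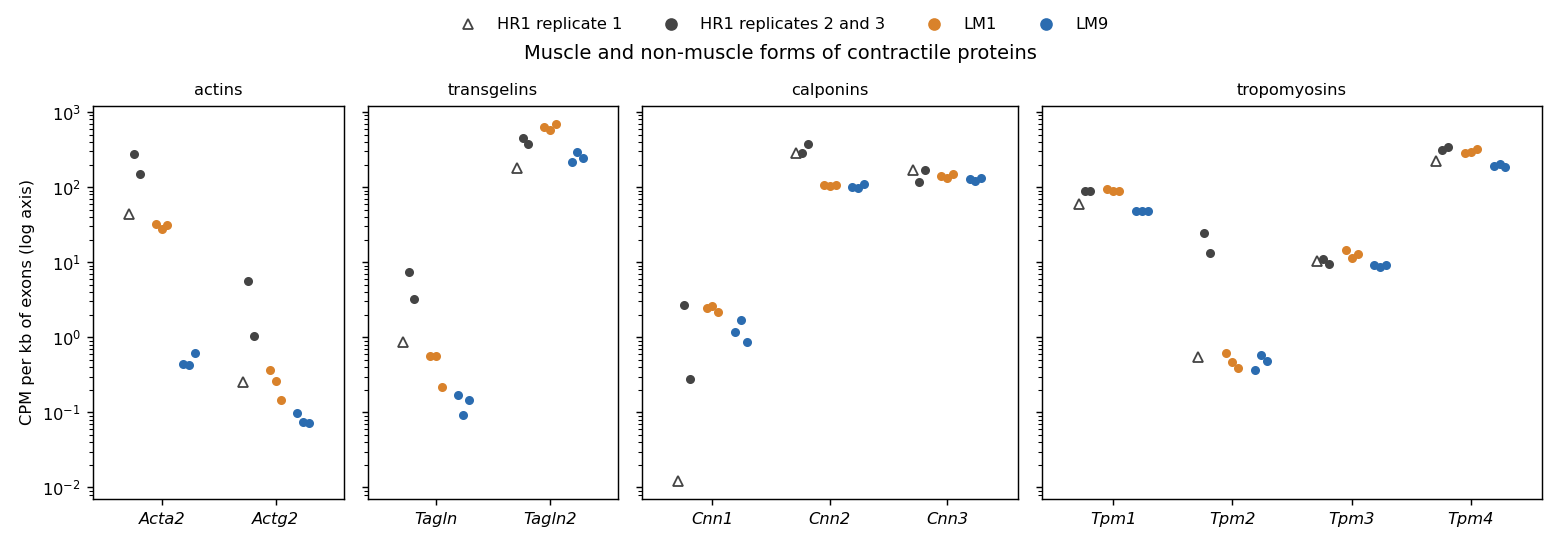
Length-scaled level of contractile protein families in each tumour, in CPM per kb of exons on a log axis. Points are single tumours and the open triangle is HR1 replicate 1. The smooth muscle forms *Acta2*, *Actg2*, *Tagln* and *Tpm2* are lower in LM tumours than in HR1 replicates 2 and 3, while *Cnn3*, *Tpm3* and *Tpm4* vary by less than 2-fold among the 9 tumours. Not all forms follow this split. *Cnn1*, the smooth muscle calponin, is above HR1 replicates 1 and 3 and below HR1 replicate 2 in every LM tumour. *Tagln2*, a broadly expressed form, is highest in LM1 tumours.

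Of the 7 matrix glycoproteins, *Tnc* rose over both LM models (background 19.9%) and *Sparc*, *Postn* and *Mgp* fell (background 23.6%). *Sparc*, a collagen-binding matricellular protein, had the highest mean level of the 7 per kilobase in each model, with 2168 CPM per kb in HR1, 971 in LM1 and 1125 in LM9. *Sparc* was at 10367, 7803 and 6466 CPM in HR1, 3591, 3845 and 3604 CPM in LM1 and 4393, 4025 and 4371 CPM in LM9. HR1 and LM tumours did not overlap, and the log2 fold change was -1.05 ± 0.15 (adjusted p = 0.000931), or -0.84 (adjusted p = 0.00015) without HR1 replicate 1. *Postn*, the periostin of wound and tumour stroma, was at 47.3, 1374 and 1021 CPM in HR1, 34.6, 41.6 and 40.4 CPM in LM1 and 9.96, 2.93 and 3.74 CPM in LM9. HR1 replicate 1 was more than an order of magnitude below the other HR1 tumours and just above the LM1 tumours. The fitted log2 difference was -5.79 ± 0.82 (adjusted p = 0.00092), or -6.34 (adjusted p = 4.47e-06) without HR1 replicate 1. *Mgp*, an inhibitor of calcification, was at 58.4, 3.96 and 7.05 CPM in HR1, 0.441, 0.453 and 0.432 CPM in LM1 and 0.172, 0.137 and 0.248 CPM in LM9. Here HR1 replicate 1 was the highest of all, and the LM tumours were still below the lowest HR1 tumour without it. The log2 fold change was -6.32 ± 0.80 (adjusted p = 0.000544), or -4.24 (adjusted p = 4.98e-06) without HR1 replicate 1. *Tnc*, the adhesion-modulating tenascin-C, was at 109, 72.6 and 129 CPM in HR1, 265, 331 and 224 CPM in LM1 and 198, 164 and 133 CPM in LM9. All LM tumours were above all HR1 tumours, LM9 replicate 3 by the smallest margin. On the log2 scale the difference was 1.04 ± 0.22 (adjusted p = 0.00624), or 1.08 (adjusted p = 0.00559) without HR1 replicate 1. In LM1 alone it was 1.40 ± 0.25 (adjusted p = 0.00353), and in LM9 alone it did not pass with all tumours, at 0.67 ± 0.25 (adjusted p = 0.056), or 0.71 (adjusted p = 0.0474) without HR1 replicate 1.

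*Fn1*, fibronectin, was at 906, 3729.5 and 4156 CPM in HR1, 811, 1135 and 702 CPM in LM1 and 3326, 3584 and 2798 CPM in LM9. LM9 tumours were close to HR1 replicates 2 and 3, and LM1 tumours close to HR1 replicate 1. Its fold change on the log2 scale was -1.73 ± 0.48 (adjusted p = 0.0233) in LM1 and 0.14 ± 0.47 (adjusted p = 0.827) in LM9, or -2.15 and -0.28 without HR1 replicate 1. *Spp1*, osteopontin, is named because its direction depended on the processing. It was at 6.58, 666 and 2099 CPM in HR1, 133, 110.5 and 119.6 CPM in LM1 and 1132, 838 and 1189 CPM in LM9. The HR1 tumours spanned the values of both LM models, and the log2 fold change of LM tumours versus HR1 was -1.37 ± 1.00 (adjusted p = 0.294), or -1.95 (adjusted p = 0.0011) without HR1 replicate 1. Without HR1 replicate 3 it was 0.085, and by limma-voom 0.77, both of the opposite sign. *Fstl1*, a follistatin-related glycoprotein, ranged from 2.75 to 8.40 CPM over all tumours and did not pass.

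Of the 7 genes of small proteoglycans and elastic fibres, 5 fell in LM tumours (background 23.6%) and none rose. In LM1 alone 3 fell (background 18.7%), and *Dcn* and *Lum* did not pass. *Eln*, elastin, was at 2035, 459 and 235 CPM in HR1, 147, 172 and 153 CPM in LM1 and 28.2, 14.9 and 7.02 CPM in LM9. The models did not overlap, and LM9 was lowest. The fitted log2 difference was -5.76 ± 0.91 (adjusted p = 0.00175) in LM9 and -2.53 ± 0.78 (adjusted p = 0.0343) in LM1; without HR1 replicate 1 these were -4.37 (adjusted p = 0.000228) and -1.14 (adjusted p = 0.0786). *Fbn1*, the fibrillin of the microfibrils on which elastin is laid down, was at 25.7, 328 and 231 CPM in HR1, 42.2, 43.2 and 26.2 CPM in LM1 and 19.6, 15.4 and 12.6 CPM in LM9. HR1 replicate 1 was within the LM range, and the log2 fold change was -3.0 ± 0.58 (adjusted p = 0.00373), or -3.52 (adjusted p = 2.02e-06) without HR1 replicate 1. *Fbln5*, a fibulin needed for elastic fibre assembly, was at 120.5, 158 and 389.6 CPM in HR1, 48.9, 48.0 and 56.5 CPM in LM1 and 28.9, 27.4 and 26.5 CPM in LM9. All HR1 tumours were above all LM tumours, with a log2 fold change of -2.57 ± 0.31 (adjusted p = 0.000448), or -2.86 (adjusted p = 2.42e-05) without HR1 replicate 1. *Dcn* and *Lum*, the small leucine-rich proteoglycans decorin and lumican, lie 47.338 kb apart on chromosome 10 (*Dcn* from 97479500 to 97518163, *Lum* from 97565501 to 97572703 on GRCm38). *Lum* was at 680.2, 554 and 425 CPM in HR1, 448, 444 and 577 CPM in LM1 and 78.1, 19.7 and 31.3 CPM in LM9. LM1 tumours lay in the HR1 range and LM9 tumours below it, with a log2 fold change of -3.68 ± 0.49 (adjusted p = 0.000821) in LM9 and -0.18 ± 0.44 (adjusted p = 0.78) in LM1, or -3.50 (adjusted p = 0.000588) and 0.01 (adjusted p = 0.99) without HR1 replicate 1. *Dcn* was at 17605, 432 and 329 CPM in HR1, 562, 569 and 645 CPM in LM1 and 76.8, 61.5 and 15.9 CPM in LM9. HR1 replicate 1 was far above the other 8 tumours, and without it LM1 tumours were above both remaining HR1 tumours. For both LM models the log2 fold change was -5.13 ± 1.14 (adjusted p = 0.00726), and the call was lost at -1.12 (adjusted p = 0.0553) without HR1 replicate 1. In LM9 the fall held, with -6.90 ± 1.66 (adjusted p = 0.0111) before and -2.88 (adjusted p = 0.00192) after. *Bgn*, biglycan, and *Fbln2*, another fibulin, did not pass with all tumours. Without HR1 replicate 1, *Bgn* rose at 1.25 (adjusted p = 0.00662) and *Fbln2* fell at -1.14 (adjusted p = 0.000212); HR1 replicate 1 had 4369 CPM of *Bgn*, where the other HR1 tumours had 719 and 1662.

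The 26 other mesenchymal matrix genes, listed by name, were read the same way, and 4 were higher and 12 lower in LM tumours versus HR1, or 15.4% and 46.2% against 19.9% and 23.6% of all tested genes. Their median log2 fold change was -0.61. The 3 largest differences were falls. *Srpx2*, a secreted sushi-repeat protein, was at 59.4, 103 and 181 CPM in HR1, 26.9, 26.2 and 31.3 CPM in LM1 and 0.408, 0.137 and 0.225 CPM in LM9, with a log2 fold change of -5.40 ± 0.36 (adjusted p = 3.88e-05), or -5.70 (adjusted p = 2.75e-07) without HR1 replicate 1. *Fbln1*, a fibulin, was at 1741, 65.8 and 22.9 CPM in HR1, 7.90, 8.02 and 7.16 CPM in LM1 and 46.2, 79.7 and 47.6 CPM in LM9. Its difference went from -4.85 ± 1.07 (adjusted p = 0.00695) to -1.07 (adjusted p = 0.0262) without HR1 replicate 1. *Mfap5*, a microfibril-associated protein, was at 34.9, 5.29 and 6.28 CPM in HR1, 0.525, 0.906 and 0.483 CPM in LM1 and 0.708, 0.549 and 0.540 CPM in LM9, with a log2 fold change of -4.64 ± 0.59 (adjusted p = 0.000563), or -3.21 (adjusted p = 1.71e-05) without HR1 replicate 1.

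Markers of fibroblasts, which produce most of these matrix proteins in tissue, were read beside the matrix members. Of 10 fibroblast markers, 7 fell in LM tumours, none rose and 3 did not pass, against 23.6% of all tested genes lower and 19.9% higher. Without HR1 replicate 1, 7 fell (background 28.5%) and *Clec3b* rose (background 27.5%). *Clec3b* was at 5.25, 0.0675 and 0.154 CPM in HR1, 2.96, 3.04 and 3.91 CPM in LM1 and 15.5, 14.7 and 18.5 CPM in LM9. The summed level of the 10 was 18429 to 27245 CPM in HR1, 11615 to 15803 in LM1 and 11520 to 13023 in LM9. Collagen genes made up most of the sum. *Col3a1* was at 3338, 12048 and 7919.5 CPM in HR1, 2790.1, 3285 and 2568 CPM in LM1 and 2306, 1299.7 and 1423 CPM in LM9 and fell (log2 fold change -1.82 ± 0.34 (adjusted p = 0.00342), or -2.18 (adjusted p = 4.05e-05) without HR1 replicate 1). *Col1a1* ranged from 6358 to 12670 CPM and did not pass (log2 fold change -0.43, adjusted p = 0.106). Mean levels in HR1 and LM tumours were 7768 and 2279 CPM for *Col3a1* and 10242 and 7588 CPM for *Col1a1*. The largest falls were those of *Smoc2*, a matricellular protein (-8.78, adjusted p = 8.52e-05), *Col1a2*, the partner chain of type I collagen (-4.92, adjusted p = 0.00224), and *Pi16*, a fibroblast surface protein (-4.91, adjusted p = 0.00151). Without HR1 replicate 1 these were -9.28 (adjusted p = 1.28e-07), -5.49 (adjusted p = 4.58e-07) and -3.84 (adjusted p = 0.00101). *Col1a2* was at 44.2, 1472 and 2726 CPM in HR1, 39.0, 40.5 and 35.0 CPM in LM1 and 73.2, 40.5 and 57.0 CPM in LM9, so HR1 replicate 1 was within the LM range. Of 10 leukocyte markers, 7 fell and none rose, with sums of 208 to 859.6 CPM in HR1, 176 to 189 in LM1 and 197 to 239.9 in LM9. The background was again 23.6% lower. Most of the LM9 sum was the macrophage gene *Cd68*, at 24.2, 122 and 41.2 CPM in HR1, 15.9, 17.7 and 17.9 CPM in LM1 and 107, 135 and 138 CPM in LM9, which did not pass in LM9. *C1qa*, a complement gene of macrophages, was at 169.9, 217 and 43.3 CPM in HR1, 41.9, 34.7 and 35.5 CPM in LM1 and 13.2, 6.73 and 11.8 CPM in LM9 and fell in LM9 (log2 fold change -3.76 ± 0.55 (adjusted p = 0.0013), or -3.62 (adjusted p = 0.00106) without HR1 replicate 1). In LM9 alone 8 of the 10 fell (background 21.9%), or 7 without HR1 replicate 1 (background 27.8%). No fibroblast or leukocyte marker was at 3 counts or fewer in all tumours of a model, and *Ptprc*, the common leukocyte antigen, ranged from 2.29 to 11.3 CPM. Of 7 endothelial markers tested, from 8 listed, *Cdh5* and *Kdr* rose and 4 fell. Both adipocyte markers tested, from 5 listed, fell, and without HR1 replicate 1 only *Fabp4* did. *Lpl* was at 38.9, 4.91 and 0.257 CPM in HR1, 0.987, 1.81 and 0.686 CPM in LM1 and 1.33, 0.824 and 1.53 CPM in LM9, and its log2 fold change went from -3.61 ± 1.02 (adjusted p = 0.0202) to -1.11 (adjusted p = 0.243) without HR1 replicate 1. Of 2 skeletal muscle genes tested, from 5 listed, *Acta1* fell. Of 7 epithelial markers 1 rose and 2 fell. The part of such cells in the matrix and contractile results was not tested.

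**Figure D4:**
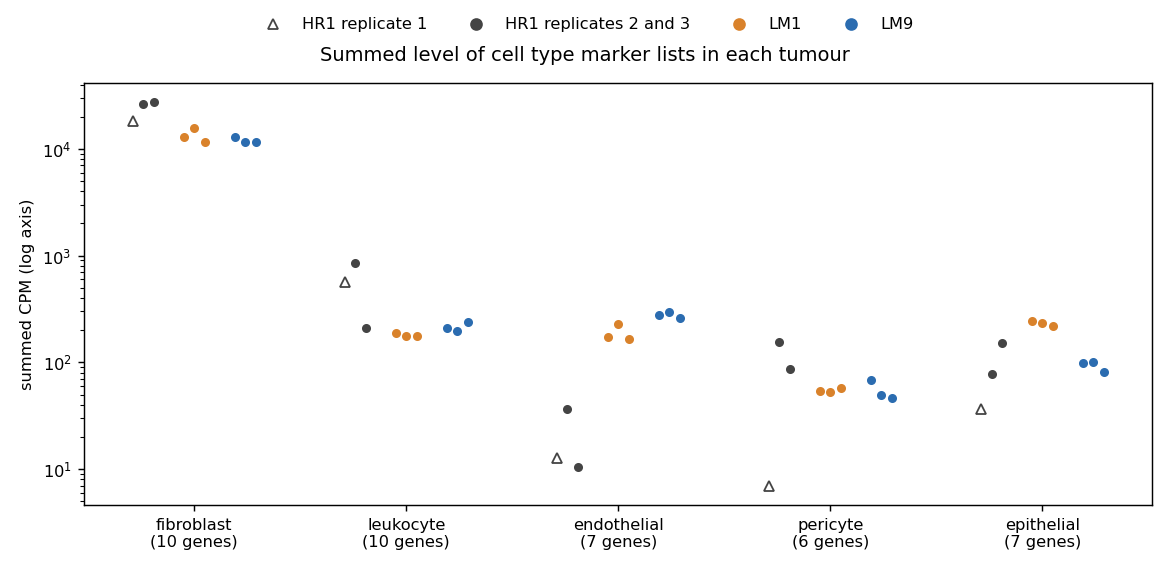
Summed level of 5 cell type marker lists in each tumour, in CPM on a log axis. Points are single tumours and the open triangle is HR1 replicate 1. The fibroblast sum is 18429 to 27245 CPM in HR1 and at most 15803 CPM in LM tumours, whereas the endothelial sum, made up in LM tumours mostly of *Cdh5* and *Kdr*, is higher there although 4 of its 7 markers fell.

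Among 7 surface receptors, *Pdpn* and *Cd44* rose in LM tumours (background 19.9%) and *Thy1*, *Pdgfra* and *Pdgfrb* fell (background 23.6%). *Pdpn* encodes podoplanin, a mucin-type membrane glycoprotein linked to the cytoskeleton. Its promoter is shown because *Pdpn* had the largest rise of the list and the window holds an E-box of the kind that ZEB and SNAIL factors bind (CAGGTG or CACCTG, which are reverse complements), in capitals, from base 25 to 30 after the start (chr4:143299515-143299814, minus strand, RefSeq, GRCm38.p6).
Pdpn: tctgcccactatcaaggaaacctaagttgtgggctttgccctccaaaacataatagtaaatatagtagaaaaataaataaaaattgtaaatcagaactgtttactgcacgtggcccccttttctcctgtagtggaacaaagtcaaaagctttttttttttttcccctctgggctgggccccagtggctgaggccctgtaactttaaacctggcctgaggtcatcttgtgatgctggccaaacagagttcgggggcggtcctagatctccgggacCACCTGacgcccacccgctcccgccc

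This E-box occurred in 20.2% of all promoters of the same length and in those of 5 of the 29 members with one, namely *Myl9*, *Snai1*, *Pdpn*, *Spp1* and *Sparc*, which did not move in a single direction. *Pdpn* was at 38.5, 50.4 and 49.4 CPM in HR1, 338, 317 and 299 CPM in LM1 and 285, 379 and 328 CPM in LM9. All LM tumours were several-fold above all HR1 tumours, HR1 replicate 1 included. The log2 fold change was 2.81 ± 0.16 (adjusted p = 1.82e-05), a 7.03-fold difference, or 2.71 (adjusted p = 7.34e-07) without HR1 replicate 1. *Cd44*, the hyaluronan receptor, was at 410.5, 394 and 669.9 CPM in HR1, 808, 841 and 862 CPM in LM1 and 759, 924 and 804 CPM in LM9. The groups did not overlap, with HR1 replicate 3 nearest to the LM tumours, and the log2 fold change was 0.76 ± 0.19 (adjusted p = 0.0113), or 0.65 (adjusted p = 0.0133) without HR1 replicate 1. *Pdgfrb*, a receptor of platelet-derived growth factor on mural cells and fibroblasts, was at 458, 319.8 and 339 CPM in HR1, 128, 152 and 134 CPM in LM1 and 155, 124 and 119 CPM in LM9. Both LM models were below all HR1 tumours, with a log2 fold change of -1.46 ± 0.15 (adjusted p = 0.000198), or -1.28 (adjusted p = 2.48e-05) without HR1 replicate 1. *Pdgfra*, its paralogue, was at 361, 180.2 and 106 CPM in HR1, 42.7, 45.9 and 40.2 CPM in LM1 and 102, 82.7 and 86.4 CPM in LM9. HR1 replicate 3 was nearest to the LM9 tumours, and the log2 fold change was -2.33 ± 0.39 (adjusted p = 0.00246) in LM1 and -1.25 ± 0.37 (adjusted p = 0.0258) in LM9, or -1.73 and -0.66 without HR1 replicate 1. *Thy1*, a membrane-anchored glycoprotein of fibroblasts, was low throughout, at 2.36, 3.56 and 0.926 CPM in HR1, 1.07, 1.13 and 1.17 CPM in LM1 and 0.687, 0.710 and 0.585 CPM in LM9. HR1 replicate 3 was within the LM range, and the log2 fold change was -1.40 ± 0.39 (adjusted p = 0.019), or -1.37 (adjusted p = 0.0197) without HR1 replicate 1. *Axl*, a receptor tyrosine kinase, was at 386, 459 and 454 CPM in HR1, 272, 327 and 344 CPM in LM1 and 569.6, 559 and 621 CPM in LM9. LM1 tumours were below all HR1 tumours and LM9 tumours above them. On the log2 scale the difference was -0.46 ± 0.14 (adjusted p = 0.0325) in LM1 and 0.43 ± 0.14 (adjusted p = 0.0373) in LM9, or -0.53 (adjusted p = 0.00649) and 0.36 (adjusted p = 0.0406) without HR1 replicate 1. *Ddr2*, a collagen receptor, ranged from 287 to 472 CPM and did not pass in any comparison.

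LM9 and LM1 were then compared directly. *Zeb2*, *Fn1* and *Axl* were higher in LM9, and *Twist2*, *Lgals1*, *Acta2*, *Tpm1*, *Lum* and *Eln* lower. The largest difference was that of *Acta2*, with a log2 fold change of -5.94 ± 0.65 (adjusted p = 0.00112), followed by *Twist2* at -4.56 ± 0.53 (adjusted p = 0.00138). *Lum* was at -3.51 ± 0.49 (adjusted p = 0.00268) and *Eln* at -3.23 ± 0.81 (adjusted p = 0.0237). *Fn1* was at 1.87 ± 0.49 (adjusted p = 0.027) and *Axl* at 0.89 ± 0.14 (adjusted p = 0.00438). For each of the 9 genes, the levels of the LM9 tumours lay apart from those of the LM1 tumours. The remaining 3 differed by less than 1 on the log2 scale, with *Zeb2* at 0.77 (adjusted p = 0.029), *Lgals1* at -0.79 (adjusted p = 0.0295) and *Tpm1* at -0.93 (adjusted p = 0.00729). Without HR1 replicate 1, all 9 calls were kept and 16 were gained, among them *Dcn*, *Postn*, *Spp1*, *Vim* and *Prrx1*.

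**Figure D5:**
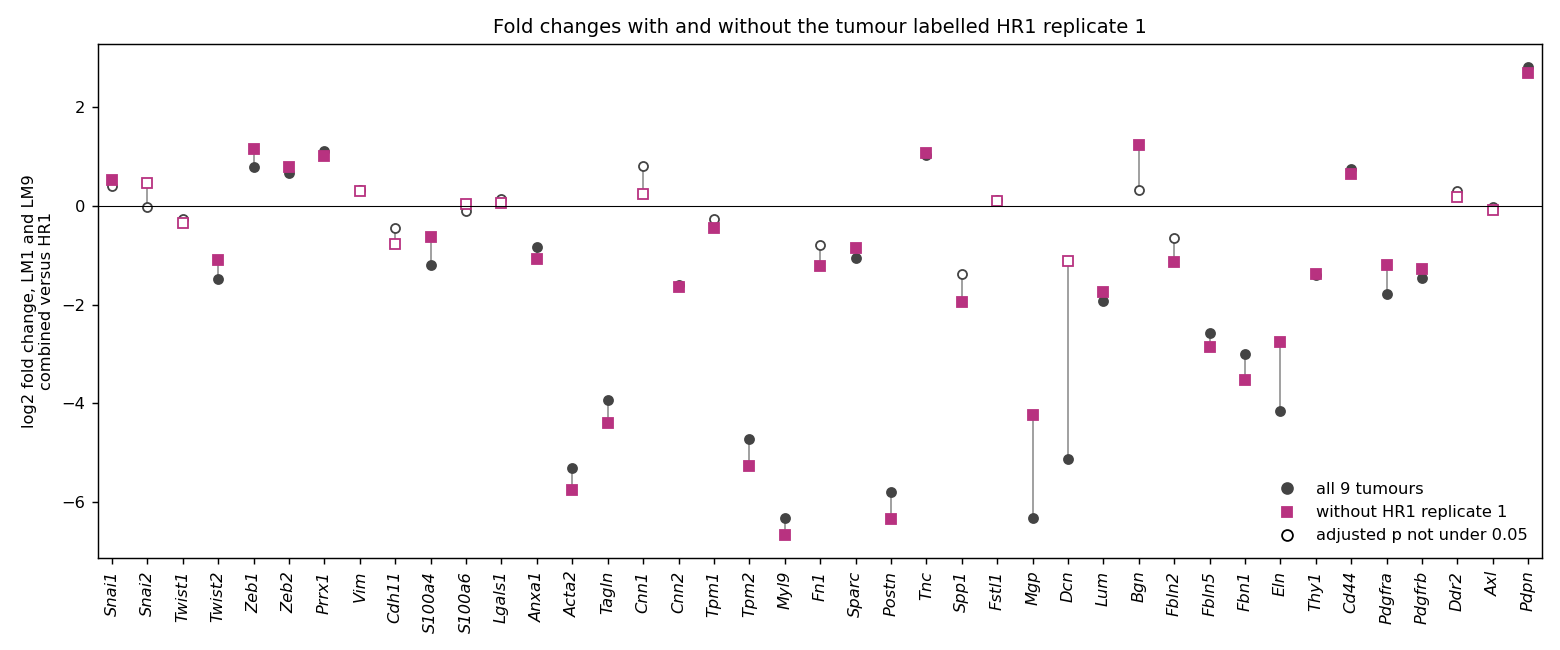
Log2 fold change of all LM tumours versus HR1 for each member with all 9 tumours (grey circles) and without HR1 replicate 1 (purple squares); filled points have an adjusted p-value under 0.05. *Dcn* moves from -5.13 to -1.12 and loses its call, whereas *Pdpn* moves from 2.81 to 2.71.

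Other regulators of EMT were taken from 2 lists of names. Of 17 further regulators tested, from 20 listed, 4 were higher and 5 lower in LM tumours versus HR1. These are 23.5% and 29.4%, near the 19.9% and 23.6% of all tested genes. The largest difference was that of *Six2*, a homeobox factor, which had 0, 4 and 0 counts in the HR1 tumours and 1.37 to 2.12 CPM in LM tumours (log2 fold change 5.60, adjusted p = 0.000912, or 5.16 (adjusted p = 0.000171) without HR1 replicate 1). *Sox9*, an SRY-box factor of cartilage and stem cells, was at 17.4, 10.3 and 6.84 CPM in HR1, 162, 253 and 103 CPM in LM1 and 333, 395 and 206 CPM in LM9. All LM tumours were above all HR1 tumours, with a log2 fold change of 4.33 ± 0.46 (adjusted p = 0.000254), or 4.76 (adjusted p = 6.46e-05) without HR1 replicate 1. *Tbx3*, a T-box repressor, was at 0.898, 0.923 and 2.08 CPM in HR1, 0.420, 0.498 and 0.533 CPM in LM1 and 0.0429, 0 and 0 CPM in LM9. LM9 tumours had at most 3 counts each and were at least 19.5-fold lower than HR1, or at least 22.5-fold without HR1 replicate 1. Of 14 genes listed as repressors of EMT, which act for the epithelial state, 9 were tested and *Ovol1*, *Ovol2*, *Esrp1*, *Esrp2* and *Elf5* were not analysed here. Of the 9, 3 were higher and 1 lower, or 33.3% and 11.1%. *Elf3*, an epithelial ETS factor, was at 0.233, 0.113 and 0.129 CPM in HR1, 1.18, 0.680 and 0.533 CPM in LM1 and 0.644, 0.938 and 0.878 CPM in LM9, and *Klf5*, a Krüppel-like factor, at 11.8, 5.18 and 4.53 CPM in HR1, 31.4, 46.4 and 20.5 CPM in LM1 and 44.6, 38.4 and 28.2 CPM in LM9. All LM tumours were above all HR1 tumours for both genes, with log2 fold changes of 2.36 ± 0.47 (adjusted p = 0.00436) and 2.29 ± 0.40 (adjusted p = 0.00243), or 2.73 (adjusted p = 0.00196) and 2.85 (adjusted p = 0.000124) without HR1 replicate 1. *Foxa1*, a forkhead factor of luminal cells, had at most 3 counts in each LM9 tumour. It was at least 6.51-fold lower there than the HR1 mean, or at least 5.29-fold without HR1 replicate 1. HR1 replicate 3 was itself at the floor with 3 counts, against 18 and 28 in HR1 replicates 1 and 2. The median log2 fold change was -0.13 over the further regulators and 0.60 over the repressors.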

How the data were processed

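RNA-seq was measured in sorted GFP-positive cells of 9 tumours, 3 each of HR1, LM1 and LM9, grouped by their labels. For each tumour the authors deposited whole-number counts per gene, not normalized. Per the methods, reads were aligned to mm10 with STAR and 5′ ends within exon unions were counted with qCount of QuasR; versions, strand setting and low-count threshold are not given in the sources used here. Genes of low count are not among the 14108 listed, since the third highest count of any gene is at least 7. Entrez numbers were matched to symbols for 14085 genes. Gene coordinates are those of RefSeq and exon lengths those of GENCODE, both on GRCm38.

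Counts were normalized by TMM and tested with edgeR 4.0.16 (quasi-likelihood F-test, robust, R 4.3.3) in 1 model over 3 groups, after the expression filter had left out 22 genes. P-values were adjusted over 14086 genes by the Benjamini-Hochberg method. At this depth, 3 counts were taken as the floor for folds against a model with no more than that in each tumour; it covers counting error only, since PCR duplicates cannot be told from molecules. Every pair of tumours within a model differed by more than sampling noise. The members and lists were chosen with earlier results of these data known. Values in every tumour are given for each transcription factor and, in each other role, for up to 6 members with the largest differences among those called in any comparison; of each further list up to 3 genes are named. Exceptions were chosen after their values were seen: names in the lists of calls gained or lost, *Spp1*, *Bgn*, *Fbln2*, *Cnn1*, related contractile forms, marker genes named beside a list's sum or count, the CArG-like form, and genes given by range. Motifs were searched in RefSeq promoters of 250 bases before to 50 after each start; 29 of 41 members had 1 or more. *Tagln* was among those without one.

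The alternatives were RLE size factors, library size only, no filter, a minimum of 1 CPM in 3 or more tumours, the tool DESeq2 1.42.0, limma-voom (limma 3.58.1), the replicate number as a block, the tumours compared alone, a minimum of 2-fold, and each tumour left out in turn. Tables were handled with pandas 2.3.3 and figures drawn with matplotlib 3.10.9.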

Additional observations from a re-analysis of the deposited data

Results flagged for a closer look

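For 9 members the change versus HR1 differed between the LM models, by edgeR's test of LM9 versus LM1, and no explanation was weighed. In LM9 relative to LM1 the log2 difference was -5.94 for *Acta2*, -4.56 for *Twist2*, -3.51 for *Lum*, -3.23 for *Eln*, -0.93 for *Tpm1* and -0.79 for *Lgals1*. It was 1.87 for *Fn1*, 0.89 for *Axl* and 0.77 for *Zeb2*. For *Axl*, LM1 tumours were below and LM9 tumours above every HR1 tumour, and both changes passed the test. For *Twist2*, LM1 tumours were above and LM9 tumours below every HR1 tumour, where the LM1 change passed without HR1 replicate 1 but not with all 9 tumours.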

How the results depend on the processing

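The counts of members called with all 9 tumours were 25 for LM1 and LM9 together versus HR1, 20 for LM1, 26 for LM9 and 9 for LM9 versus LM1. Leaving out each tumour in turn gave 23 to 30, 13 to 24, 20 to 31 and 5 to 25. The LM1 count of 13 was without LM1 replicate 1. LM9 versus LM1 moved most, to 25 without HR1 replicate 1, 15 without HR1 replicate 3, and 5 without LM1 replicate 1, LM1 replicate 3, LM9 replicate 2 or LM9 replicate 3. It was also 17 with DESeq2, 27 with only the 6 tumours compared and 5 with a minimum of 2-fold. Those 6-tumour fits have no HR1 tumours in the estimate of spread. On counts simulated for LM1 and LM9 together versus HR1, with dispersions taken from edgeR, DESeq2 made false calls more often than edgeR. The simulation did not cover LM9 versus LM1, so it does not bear on the count of 17. Other size factors and filters left each count within 1.5 times. Among the 113 member results that passed with all tumours or without HR1 replicate 1, the directions of 2 turned under an alternative, neither of them called with all tumours: *Spp1* in LM versus HR1 was 0.77 with limma-voom and ran from -1.95 (without HR1 replicate 1) to 0.085 (without HR1 replicate 3), and *Bgn* ran from -0.097 (without HR1 replicate 2) to 1.25 (without HR1 replicate 1); the cause was not tested. Both passed the test without HR1 replicate 1. Over all 164 member values, 11 changed sign without HR1 replicate 1, each with an adjusted p-value of at least 0.092 in both fits. In LM1 *Dcn* went from -3.37 to 0.64, *Lum* from -0.18 to 0.0079 and *Twist1* from 0.05 to -0.028. In LM9 *Fn1* went from 0.14 to -0.28, *Spp1* from 0.19 to -0.39, *Bgn* from -0.26 to 0.66 and *Cnn1* from 0.33 to -0.24. *Snai2* turned in LM1, in LM9 and over both (from -0.025 to 0.47), and *S100a6* over both (from -0.097 to 0.038). Over all genes, LM9 versus LM1 gave 3102 calls, but 7709 with only the tumours compared and 1150 to 6413 with a tumour left out, and LM1 versus HR1 gave 4994, but 3008 with only the tumours compared and 3121 and 3278 without LM1 replicates 1 and 2. LM9 versus HR1 gave 5958, and 3768 without LM9 replicate 1. With library size only, 1334 genes were higher and 1788 lower in LM9 versus LM1, against 1615 and 1487. Same-numbered tumours of different models did not deviate together (correlations of -0.113 to 0.137 over 9 pairs), so the numbers were not taken as pairs; with the replicate block the member counts were 24, 17, 26 and 8, and 5 of 113 gene results fell below the threshold. At this depth members with few counts in LM tumours, such as *Myl9*, limit how exactly a fold can be given.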

Other observations

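Genes of the further lists that lie outside the rule for naming were looked at after their values were seen, and are given as values only. The inhibitor of DNA-binding genes, which encode partners of helix-loop-helix factors, did not share a direction. *Id3* was at 801, 161 and 428 CPM in HR1, 72.5, 66.4 and 77.2 CPM in LM1 and 114, 97.8 and 132 CPM in LM9, and LM tumours were below all HR1 tumours (log2 fold change -2.35, adjusted p = 0.00161, or -1.69 (adjusted p = 0.00107) without HR1 replicate 1). *Id2* was at 51.8, 49.7 and 53.4 CPM in HR1, 54.7, 55.1 and 64.0 CPM in LM1 and 172, 114 and 139 CPM in LM9, where LM9 alone stood above the other models (log2 fold change versus LM1 1.29, adjusted p = 0.00189). *Klf4*, a Krüppel-like factor of the list of repressors, was at 14.8, 41.0 and 58.4 CPM in HR1, 69.8, 110.1 and 48.9 CPM in LM1 and 361, 433 and 201 CPM in LM9, and was again highest in LM9 (3.12 versus HR1, adjusted p = 0.00263, or 2.74 (adjusted p = 0.000902) without HR1 replicate 1).

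*Cdh5* and *Kdr*, genes of vascular endothelium, were at 3.23, 13.4 and 1.88 CPM in HR1, 147, 190.3 and 136 CPM in LM1 and 232, 254 and 228 CPM in LM9 and at 0.432, 1.73 and 1.13 CPM in HR1, 22.3, 34.0 and 25.1 CPM in LM1 and 37.3, 35.8 and 23.3 CPM in LM9. All LM tumours were above all HR1 tumours for both, while *Pecam1*, another endothelial gene, was at 2.23, 6.42 and 1.18 CPM in HR1, 0.903, 1.25 and 0.660 CPM in LM1 and 0.794, 0.389 and 0.383 CPM in LM9 and fell (log2 fold change -2.22, adjusted p = 0.00908, or -2.43 (adjusted p = 0.00357) without HR1 replicate 1). *Kcnj8*, a potassium channel gene of pericytes, was at 1.13, 0.946 and 0.154 CPM in HR1, 35.8, 26.7 and 33.6 CPM in LM1 and 0.107, 0.0458 and 0.0225 CPM in LM9, and each LM1 tumour was above all tumours of the other models.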
